A study of Mus musculus with 2 samples.

Results

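Interferon-response genes are the genes that cells switch on when interferons, secreted alarm proteins of antiviral defence, bind their receptors. Type I and type III interferons act through the JAK kinases on a transcription factor complex that holds STAT2 and IRF9 and binds a promoter sequence called the interferon-stimulated response element, and interferon gamma acts on a second sequence, the gamma-activated site. Keratinocytes, fibroblasts and endothelial cells of the skin can all respond, and several of these genes also have a standing level without infection. The 31 genes described here form a fixed list of names, chosen without a measured threshold, and were matched by symbol in the gene list of the count matrices, where 30 of the 31 were found among 32285 genes. No level of Mx1 was analysed here, and it enters only the search of 3′ UTRs below.

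Levels are given as CPM, the counts of a gene scaled to a common total of counts per class and library. The measurements are unique molecular identifiers (UMIs, each standing for 1 captured RNA molecule) from single cells of dorsal mouse skin on postnatal day 3. A first library had the genotype wild type and a second the genotype miR-200b induced, and the treatment label of both was Dox. The labels used here do not describe the inducible construct, its promoter or the number of animals, and there was 1 library per group, so every difference below compares 2 libraries and has no replicate check. Epidermis and dermis had been dissociated separately and mixed at 30 to 70. The study's comparison is between the control and the induced library, and the classes of cells within each library give a second one.

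The 2 libraries held 9072 and 9114 barcodes and 100409201 and 119705137 UMIs. After filtering, 4816 control cells (median 14584.5 UMIs) and 4890 induced cells (median 17850.5 UMIs) remained, and 8 of their barcodes occurred in both libraries. Classes were rebuilt from markers and are meant as "-like" throughout, so fibroblast stands for fibroblast-like. In 27 of 36 epithelial clusters, 1 library supplied 95% or more of the cells, and such a cluster may reflect its library and not a type. Gm13648, whose annotated span on chromosome 4 holds the miR-200b gene, was at 2.23 CPM in control epithelial cells and 529.5 CPM in induced ones. Control endothelial cells had 0 UMIs of it, which allows up to 2.64 CPM, and induced ones 17.3 CPM.

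Short sequences show what the genes share with the target letters of the induced microRNA and with each other. The mature microRNA (RefSeq, GRCm38.p6, chromosome 4, 156055685 to 156055706, minus strand) is given with its seed, bases 2 to 8, in capitals, because the seed is the part that pairs with target RNAs.
mmu-miR-200b-3p: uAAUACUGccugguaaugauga
The matching letters in a 3′ UTR are CAGTATT. In the longest annotated 3′ UTR of each gene (GENCODE M21), 1 of the 31 members held this match, which is 3.23%, and 2791 of 21020 genes did, which is 13.3%. The member was Ifit2, and its site starts at base 331 of a 3′ UTR of 1945 bases.
Ifit2 site: ttgggcttgtttCAGTATTtgtataaagca

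Promoters were taken as 250 bases before to 50 bases after the start of each gene in RefSeq (GRCm38.p6), which held 26 of the 31 members. The core of the interferon-stimulated response element was searched as 2 copies of GAAA with any 2 bases between them, on both strands. It was present in 12 of the 26 members, 46.2%, and in 1079 of 27025 genes, 3.99%. A match is a description of letters and not a shown site. The windows below run 5′ to 3′ along the gene with the match in capitals, and they show the gene with the most matches and members from 4 roles.
Isg15: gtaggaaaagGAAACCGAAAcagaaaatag
Ifit1: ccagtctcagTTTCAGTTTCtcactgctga
Bst2: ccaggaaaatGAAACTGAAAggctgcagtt
Stat2: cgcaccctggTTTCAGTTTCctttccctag
B2m: ataagaacatGAAACTGAAAatgggaaagt
The window of Isg15 lies at chromosome 4, 156200871 to 156200900, and is the middle one of 3 overlapping matches that start 78, 72 and 66 bases before the gene. That of Ifit1 lies at chromosome 19, 34640794 to 34640823, that of Bst2 at chromosome 8, 71537577 to 71537606, that of Stat2 at chromosome 10, 128270266 to 128270295, and that of B2m at chromosome 2, 122147538 to 122147567. Ifitm3 held 2 matches, both just inside the gene, and Ifitm1, Oas1f, Irf7 and Irf9 held none.

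The gamma-activated site was searched as TTCNNNGAA, which reads the same on both strands. It was present in 7 of the 26 members, 26.9%, and in 9.55% of genes. Bst2, Ifitm3 and Oas1a held a match to the first motif too, and in Bst2 and Ifitm3 the letters of both overlapped. That of Irf1, a transcription factor that interferon gamma is known to induce, starts 90 bases before the gene at chromosome 11, in the window 53769914 to 53769943.
Irf1: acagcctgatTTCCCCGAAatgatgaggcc

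Among the larger classes, most members had their highest level in endothelial cells in the control library. Over 10 classes of at least 40 cells, the endothelial class had the highest CPM for 26 of the 30 measured members in the control library and for 17 in the induced one, and all 17 were among the 26. The exceptions in the control library were Ifitm1, Ifitm2, Ifi27 and Oas1f. The share of all genes that were highest in the endothelial class was not computed, so these counts are a description. With the macrophage and dendritic class of 29 and 26 cells included, the endothelial class was highest for 21 members in the control and 10 in the induced library, and the macrophage and dendritic class for 5 and 10. Psmb8, for example, was at 365 and 240.5 CPM there and B2m at 1762 and 1357 CPM. Single cells weighed on these ranks: 1 of the 26 induced macrophage and dendritic cells held 121 of the 168 effector UMIs of its class, and 1 control endothelial cell held 667 of 1170. Without the endothelial and the macrophage and dendritic cell with the most effector UMIs in each library, the endothelial class was highest for 22 control and 17 induced members among the 10 classes. Ifit2, Ifit3, Ifih1 and Oas2 were then highest in another control class. With macrophages and dendritic cells included, it was then highest for 17 and 13, and they for 7 and 7. Isg15 in macrophages and dendritic cells was at 59.5 and 178 CPM with these cells and at 26.9 and 4.32 CPM without them. The endothelial class held 63 control and 67 induced cells in 1 cluster led by Fabp4, Gpihbp1, Ly6c1, Rbp7 and Pecam1. Of 14 immune markers, 9 were at 0 in its control cells and 12 in its induced cells, their summed levels were 11.4 and 2.47 CPM, and Ptprc, the pan-leukocyte marker, was at 0 UMIs in both libraries. UMIs per cell were fewer in the induced library, at a median of 8708 against 13945.

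**Figure D1:**
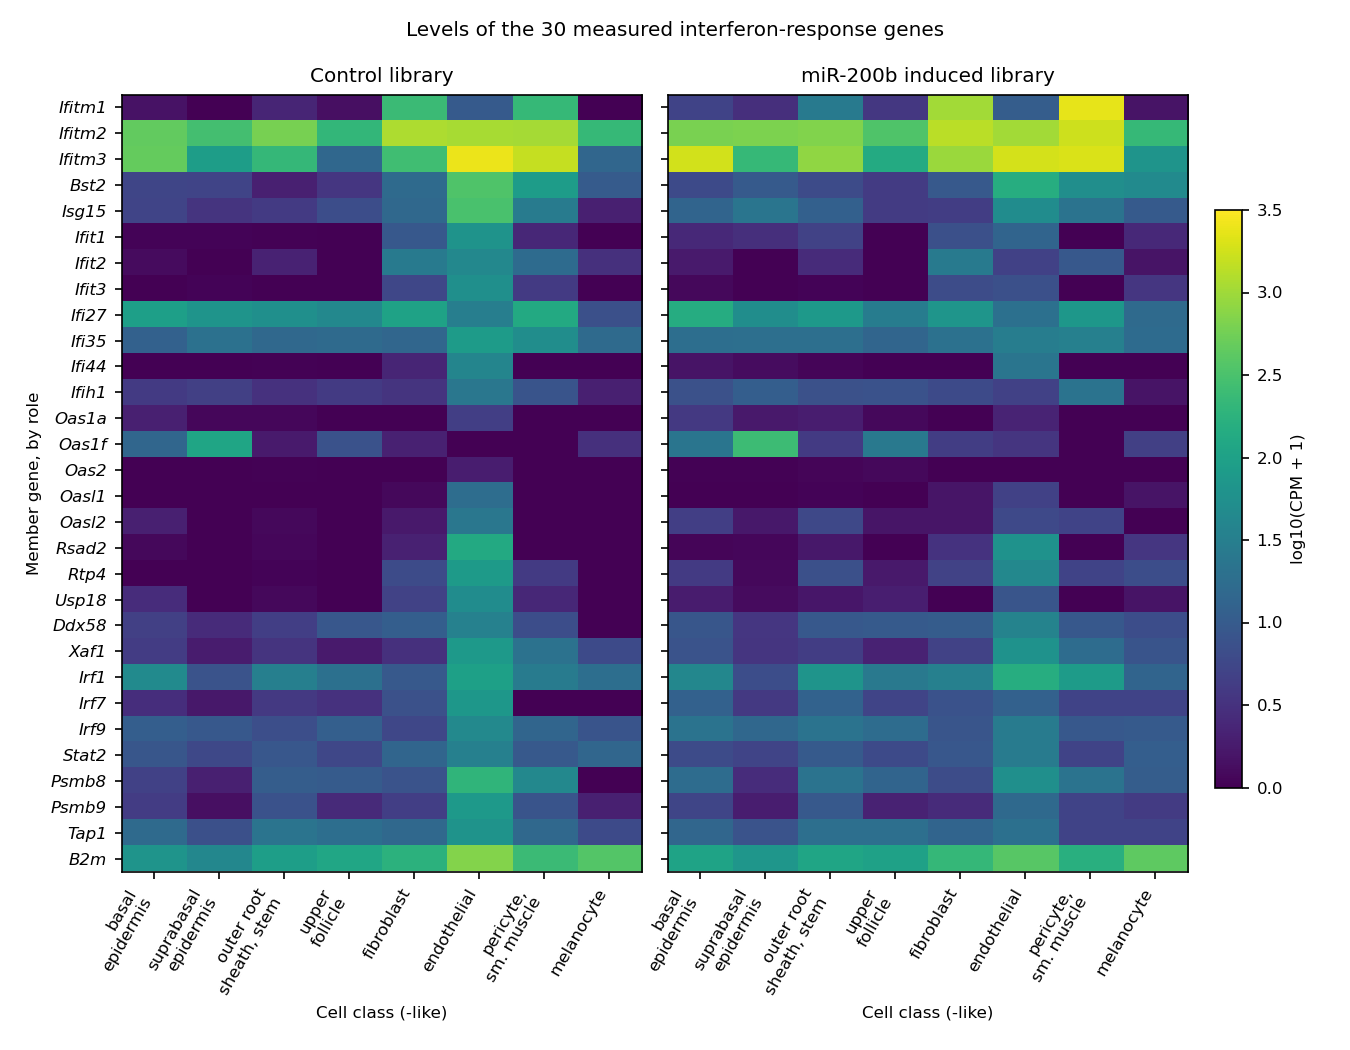
Level of each of the 30 measured members, as log10 of CPM plus 1, in 8 cell classes of the control library (left) and the miR-200b induced library (right), with genes in rows ordered by role. Among the classes drawn, which leave out macrophages and dendritic cells, the endothelial column is the brightest for most effectors in both libraries, Oas1f is bright in the suprabasal column, and Ifitm1 is bright in the fibroblast and pericyte columns.

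Ifitm3, Ifitm2 and Ifitm1 encode small membrane proteins that hinder the entry of viruses into cells, and Bst2 encodes tetherin, which holds budding viruses at the cell surface. The 3 Ifitm genes lie near each other on chromosome 7, and Ifitm2 and Ifitm3 are close paralogs whose reads the 3′ counting could divide wrongly. Ifitm3 was at 201 CPM in control and 965 CPM in induced epithelial cells, a log2 ratio of 2.27 (2.24 to 2.29), and the induced library was also the higher one in each of the 4 epithelial classes given next. In basal epidermis it was at 475 and 1803 CPM, in suprabasal epidermis at 87.4 and 218 CPM, in the outer root sheath and follicle stem class at 217 and 819 CPM, and in the upper follicle at 13.8 and 137 CPM. Few epithelial clusters held at least 20 cells of both libraries and a class name, and the gap within them varied. In the upper follicle, Ifitm3 was at 20.5 and 172 CPM in E22 (96 control and 81 induced cells) and at 11.3 and 88.3 CPM in E25 (71 and 90 cells), while a further cluster, E34, had 0 control and 45 induced cells. In the outer root sheath class it was at 377 and 588 CPM in E21 (162 and 25 cells) and at 477 and 885 CPM in E29 (87 and 27 cells), both under 2-fold and a smaller gap than over the whole class. In the hair matrix cluster E30 (58 and 51 cells) it was at 92.6 and 169.7 CPM, also under 2-fold. Basal epidermis came mainly from clusters E1 and E33 in the control and E0, E3, E20 and E26 in the induced library. Suprabasal epidermis came mainly from E12 and E19 against E4 and E28, and the outer root sheath class mainly from E2, E5, E15, E17, E21 and E29 against E6, E7, E11, E24 and E27.

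In endothelial cells, the class where Ifitm3 was highest in the control library, the values were 2461 CPM (control) and 1899 CPM (induced), with a log2 ratio of -0.37 (-0.47 to -0.28). With each cell set to 2000 UMIs, the share of cells with an Ifitm3 UMI was 31.6% (30.1 to 33.1) of control and 69.3% (67.8 to 70.8) of induced epithelial cells. Unthinned it was 72.1% and 91.6%, at median depths of 16061.5 and 21151 UMIs. In melanocytes, given as a low comparison class with median depths of 10156 and 7522.5 UMIs, it was 2.86% (0.42 to 9.34) and 9.60% (6.15 to 14.1) after thinning. Gm13648 was at 7.17 CPM in induced melanocytes, and the part of free RNA in these shares was not tested, so the melanocyte shares are not read as expression.

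Ifitm1 was highest in mesenchymal classes of both libraries. Control fibroblasts held 242 CPM and induced ones 1028 CPM, a log2 ratio of 2.09 (1.99 to 2.19). Pericytes and smooth muscle held 221 and 2359.9 CPM, a log2 ratio of 3.42 (3.16 to 3.68). Endothelial cells were at 8.79 and 9.89 CPM. The outer root sheath class was at 1.29 CPM in the control and 27.0 CPM in the induced library, and suprabasal epidermis had 0 UMIs in the control, which allows up to 0.206 CPM, and 1.97 CPM in the induced library. Part of the fibroblast value came from 1 of its 3 clusters, led by Lpl, with 7 control and 77 induced cells. Within the other two, Ifitm1 was at 51.3 and 241 CPM in N10 and at 540.4 and 992 CPM in N11. Without the Lpl cluster, Ifitm1 was at 241 and 701 CPM, and Ifitm3 at 259 and 362 CPM where it had been at 265 and 943 CPM with it.

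Ifitm2 was at 435 CPM in control and 617 CPM in induced epithelial cells, and at 1165 and 1373 CPM in fibroblasts. In suprabasal epidermis it was at 283 and 640.5 CPM. Bst2 was at 345 CPM in control and 149.6 CPM in induced endothelial cells, and without the cell with the most effector UMIs in each library at 287 and 151 CPM, no longer past 2-fold. In epithelial cells it was at 2.45 and 6.12 CPM.

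The effectors are the members outside the IFITM and tetherin, transcription factor and antigen processing groups. Many of their products act on viral RNA, proteins or assembly, and 18 of the 19 on the list were measured. Summed over the 18, they stood at 110 CPM (108 to 113) in control epithelial cells and 225 CPM (222 to 228) in induced ones, a log2 ratio of 1.03 (0.99 to 1.07). In 4 named classes the log2 ratio of the 18 was smaller than this pooled one, at 0.77 in basal epidermis, 0.83 in suprabasal epidermis, 0.78 in the outer root sheath class and 0.11 in the upper follicle. The make-up of the pool differed between the libraries, with 532 control and 1224 induced basal cells and 207 and 3 sebaceous gland cells, and in the unnamed epithelial clusters the log2 ratio was 1.45. In fibroblasts they stood at 199 and 156 CPM, a log2 ratio of -0.35 (-0.54 to -0.16). In endothelial cells they stood at 1059 and 363 CPM, a log2 ratio of -1.54 (-1.73 to -1.36), and without the cell with the most effector UMIs in each library that ratio was -0.51. All intervals are 95% and cover counting error only.

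Of the effector UMIs of the epithelium, 8503 in the control and 22089 in the induced library, Ifi27 held 4487 and 8755 and Oas1f held 1862 and 7622. Oas1f, of the 2′-5′ oligoadenylate synthetase family that activates RNase L, was concentrated in suprabasal epidermis, at 113 CPM in the control and 252 CPM in the induced library, against 0 UMIs and 2.47 CPM in endothelial cells. The share of suprabasal cells with an Oas1f UMI at 2000 UMIs per cell was 15.9% (12.7 to 19.6) and 37.3% (33.0 to 41.9), and 67.1% and 96.8% unthinned. In the outer root sheath class, at median depths of 11941 and 15937 UMIs against 25129 and 45381.5 in suprabasal epidermis, it was 0.15% (0.02 to 0.53) and 0.58% (0.24 to 1.16). The Oas1 genes are a cluster of near copies on chromosome 5, so an assignment to Oas1f and not to a neighbour is uncertain. Ifi27, a small mitochondrial and membrane protein, was broadly present, at 58.1 and 89.1 CPM in epithelial cells, and higher in control than induced suprabasal epidermis, at 63.2 and 50.7 CPM. In clusters shared by both libraries, Ifi27 was also lower in the induced library in the upper follicle, at 42.1 and 24.9 CPM (211 and 109 UMIs). Its CPM was lower there in the hair matrix cluster E30 too, on 17 and 3 UMIs. In the shared outer root sheath clusters it was higher, at 120.4 and 136.6 CPM (284 and 61 UMIs).

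Without Oas1f and Ifi27, the remaining 16 effectors summed to 27.9 CPM (26.7 to 29.1) in control and 58.1 CPM (56.6 to 59.7) in induced epithelial cells. The control classes were at 29.5 CPM in basal epidermis, 27.8 in suprabasal epidermis, 27.4 in the outer root sheath class and 32.9 in the upper follicle. The induced classes were at 63.7, 59.0, 65.8 and 35.1 CPM in the same order. The upper follicle had the smallest ratio of these 4, a log2 of 0.09 (-0.22 to 0.40), whereas the other 3 had log2 ratios between 1.08 and 1.27. It was also the one made mainly of clusters shared by both libraries, and in the shared outer root sheath clusters, with 87 and 23 UMIs, the log2 ratio was 0.48 (-0.25 to 1.16). In the shared hair matrix cluster it was 0.65 (-0.19 to 1.48). The difference between these ratios was not tested. Fibroblasts had 94.4 and 86.5 CPM, pericytes and smooth muscle 136 and 114 CPM, and melanocytes 24.6 and 51.8 CPM.

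**Figure D2:**
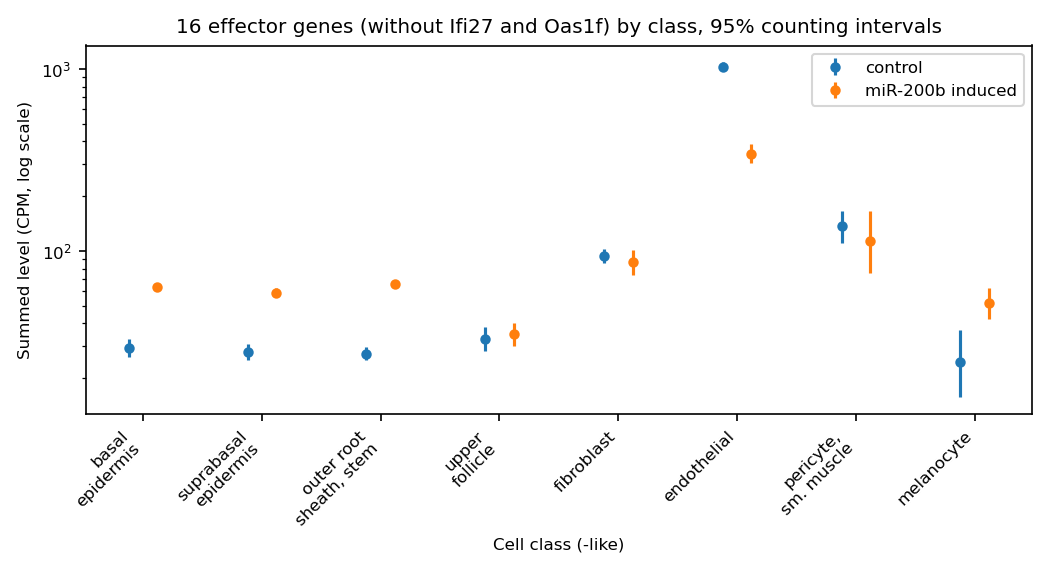
Summed level of 16 effector genes, without Ifi27 and Oas1f, in CPM on a log axis for 8 cell classes; blue points are the control library, orange points the induced library, and bars are 95% Poisson counting intervals. Basal epidermis, suprabasal epidermis and the outer root sheath class lie between 27.4 and 29.5 CPM in the control and between 59.0 and 65.8 CPM in the induced library, and the endothelial points lie highest in both.

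Among the single effectors in epithelial cells, Isg15, a ubiquitin-like protein that is conjugated to other proteins, was at 3.24 CPM in the control and 12.6 CPM in the induced library. In the clusters that both libraries shared it was lower in the induced library in the outer root sheath class, with 9 and 1 UMIs (3.81 and 2.24 CPM), and in the upper follicle, with 29 and 16 UMIs (5.79 and 3.66 CPM). In the shared hair matrix cluster it was at 5.83 and 7.80 CPM (9 and 8 UMIs). Suprabasal epidermis had the widest gap, 2.40 against 21.7 CPM. One induced suprabasal cell with 57919 UMIs held 146 of the 473 Isg15 UMIs of that class and library. Ifit1, which binds viral RNA, had 4 UMIs over all control epithelial cells and 194 in the induced ones. Rtp4, a receptor chaperone that also acts against flaviviruses, had 6 and 261 UMIs, and 146 of the latter were in the outer root sheath class. Oasl2 had 25 and 260 UMIs, and Oas1a 16 and 150. Ifih1 and Ddx58, sensors of viral double-stranded RNA, were at 2.28 and 7.05 CPM and at 3.29 and 6.41 CPM. Ifi35 differed little, at 15.9 and 17.3 CPM.

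Several effectors were close to the limit of detection in the epithelium. Ifit3 had 1 and 8 UMIs, Oas2 had 2 and 7, Oasl1 had 0 and 2, and Ifi44 had 1 and 28. Over the 10 classes and both libraries, Oas1a ranged from 0 to 3.51 CPM, Oas2 from 0 to 0.975 CPM and Oasl1 from 0 to 16.7 CPM. Ifit3 has a near copy, Ifit3b, next to it, so its low count is uncertain. Xaf1 was at 1.53 and 4.04 CPM, Ifit2 at 0.52 and 0.70 CPM, Rsad2 at 0.078 and 0.23 CPM, and Usp18, which shuts off type I receptor signalling, at 0.39 and 0.59 CPM.

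With each cell set to 2000 UMIs, an expected 1.22% (0.90 to 1.61) of 3907 control cells and 3.86% (3.28 to 4.52) of 3839 induced cells had UMIs of at least 2 of the 18 effectors, and 27.0% and 49.8% did so unthinned. Cells under 2000 UMIs, 56 control and 353 induced ones over all classes, were left out of these shares. Cells with UMIs of at least 5 of the 16 effectors were rare at full depth, 2 of 3954 control and 58 of 4100 induced cells. Of the 58, 30 were in the epidermal classes and 22 in the follicle classes, and these 22 were all in the outer root sheath class. The shared clusters E21, E22, E25, E29 and E30 held 0 such cells in either library. In the upper follicle the share with at least 2 of the 18 effectors at 2000 UMIs was 1.48% (0.24 to 4.73) in the control and 1.29% (0.24 to 3.90) in the induced library. Immune markers, which could mark leukocyte RNA, summed to 7.37 CPM in control and 5.59 CPM in induced epithelial cells, with 0 and 2 of 14 at 0, and their part in these values was not tested.

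Counted by gene, 9 of the 30 measured members reached a mean of 10 CPM in epithelial cells, and 2 of these, Ifitm3 and Oas1f, were past 2-fold higher in the induced library on the scale of log2 of CPM plus 5. Among all 8145 genes at that level, 2.22% were past 2-fold higher and 3.97% lower, 6.19% in all. Of the 9, 0 were past 2-fold lower. The median log2 difference was 0.50 for the 9 members and -0.10 for all genes tested. In basal epidermis 2 of 10 members were past 2-fold higher, Ifitm3 and Psmb8, against 2.23% of genes. In suprabasal epidermis 4 of 8 were, Isg15, Ifitm2, Ifitm3 and Oas1f, against 4.11%. In the outer root sheath class 3 of 10 were, Ifitm1, Ifitm3 and Irf9, against 2.92%, and in the upper follicle 2 of 10, Ifitm3 and Oas1f, against 2.54%. Within the clusters that held at least 20 cells of both libraries these counts were 0 of 10 in the outer root sheath class, against 2.63% of genes, and 1 of 10 in the upper follicle, Ifitm3, against 2.68%. In the shared hair matrix cluster E30, 0 of 4 were past 2-fold higher, against 5.3%. Oas1f was at 6.59 and 15.1 CPM in the shared upper follicle clusters and at 69.7 CPM in E34. Psmb8 in basal epidermis, Isg15 in suprabasal epidermis, Ifitm1 and Irf9 in the outer root sheath class and Oas1f in the upper follicle were under 10 CPM in the control and reached the mean through the induced library alone, so these counts are a description and support nothing. In these 4 classes 0 members were past 2-fold lower, where 3% (basal), 6.59% (suprabasal), 2.92% (outer root sheath) and 2.68% (upper follicle) of genes were.

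Outside the epithelium the counts differed by class. In fibroblasts 3 of 11 members were past 2-fold higher, Ifitm1, Ifitm3 and Irf1, against 4.87% of genes, and 0 lower, against 2.78%. Without the Lpl cluster, Ifitm3 was no longer past 2-fold higher in fibroblasts. In pericytes and smooth muscle 3 of 14 were higher, Ifitm1, Ifih1 (5 UMIs in each library) and Irf1, against 10.5%, and 0 lower, against 13.5%. In melanocytes 2 of 8 were higher, Ifitm3 and Bst2, against 2.33%, and 0 lower, against 2.43%. In dermal papilla cells 3 of 13 were higher, Ifitm1, Irf1 (5 and 23 UMIs) and Stat2 (2 and 7 UMIs), against 12.8%, and 4 lower, Isg15, Ifi35, Bst2 and B2m, against 11.4%. That class had 43 control and 88 induced cells with median depths of 5844 and 1778 UMIs, and Isg15 rested on 9 and 0 UMIs. Irf1 in fibroblasts, Ifih1 in pericytes and smooth muscle, Bst2 in melanocytes and Stat2 in dermal papilla cells also reached the minimum through the induced library alone. Isg15, Ifi35 and Bst2 in dermal papilla cells did so through the control alone.

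**Figure D3:**
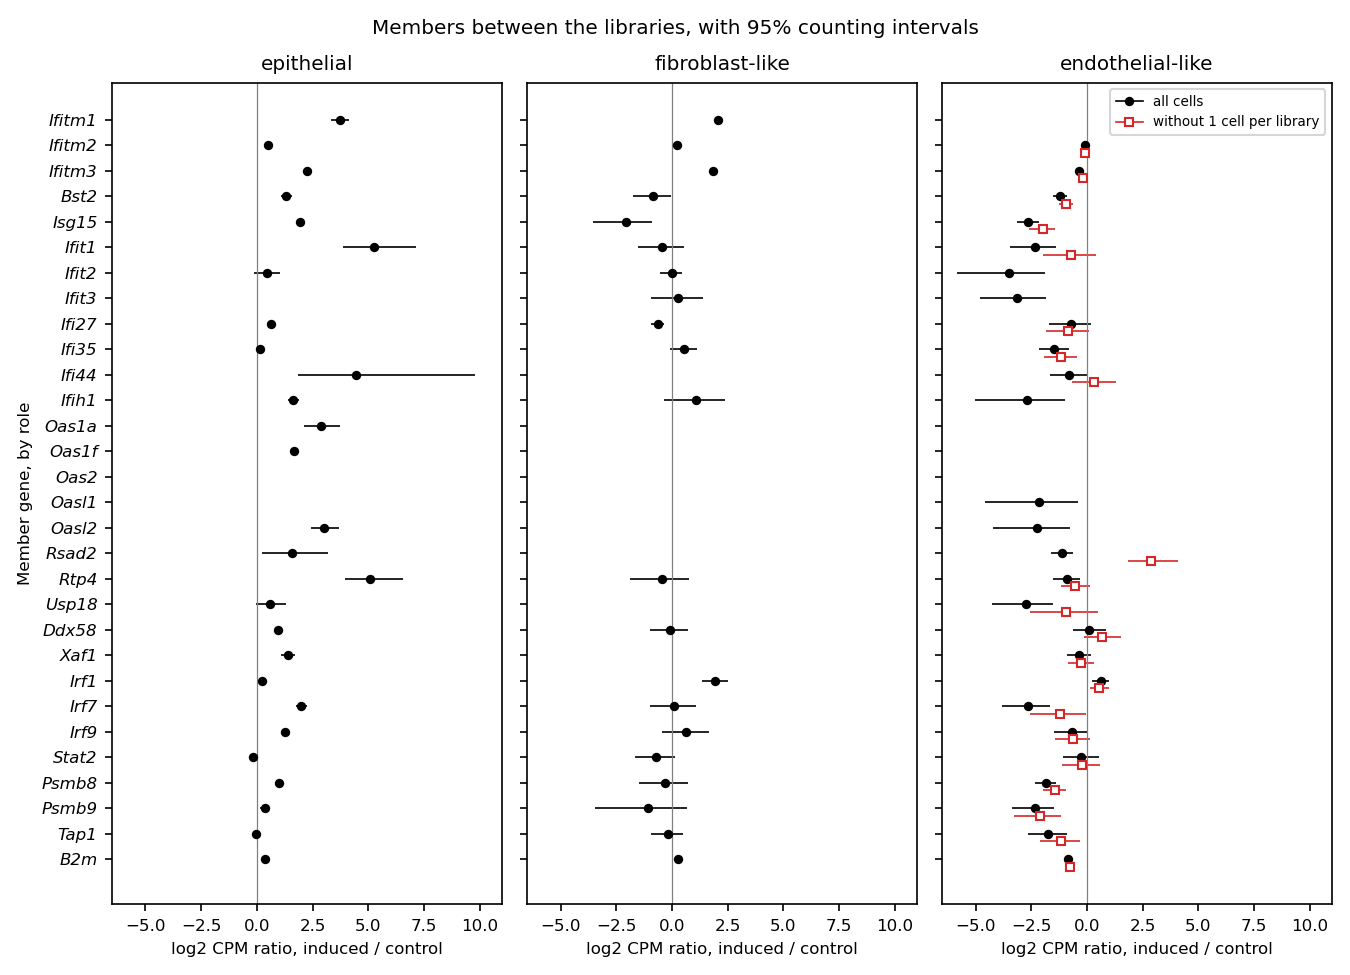
Log2 ratio of CPM, induced over control, for each member with at least 20 UMIs over both libraries and UMIs in each, in epithelial, fibroblast and endothelial cells; bars are 95% counting intervals, and open red squares in the endothelial panel leave out the cell with the most effector UMIs in each library. Most epithelial points lie right of 0, most endothelial points lie left of it, and Rsad2 moves from -1.12 to 2.87 when these cells are left out.

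In endothelial cells most values were lower in the induced library, and a single control cell held much of the signal. Of the 26 members that reached 10 CPM, 0 were past 2-fold higher in the induced library, against 4.83% of genes, and 15 were past 2-fold lower, against 7.79% of 8407 genes lower. Of the 15, 6 (Ifit2, Ifit3, Ifih1, Oasl1, Oasl2 and Usp18) were under 10 CPM in the induced library and reached the minimum through the control alone, so this count too is a description and supports nothing. Isg15 was at 309 and 49.4 CPM, Ifit1 at 62.4 and 12.4 CPM, Usp18 at 50.1 and 7.42 CPM and Rsad2, viperin, at 132 and 60.6 CPM. Ifit2 was at 42.2 and 3.71 CPM, Ifit3 at 54.5 and 6.18 CPM, Ifih1 at 23.7 and 3.71 CPM, and Oasl2 at 23.7 and 4.94 CPM. Ifi35 was at 81.7 and 29.7 CPM, Rtp4 at 79.1 and 42.0 CPM, and Ifi44 at 38.7 and 22.2 CPM. Xaf1 was at 76.4 and 59.3 CPM, and Ddx58, one of the few not lower in the induced library, at 33.4 and 35.8 CPM. However, 1 control cell of 46381 UMIs held 667 of the 1170 UMIs of the 16 effectors in that library, 57.0%, with all 16 detected and 180 UMIs of Isg15. The next control cell held 65, and the highest induced cell 23. Whether the top cell was a doublet was not tested beyond the score filter, which it passed. Without the top cell of each library, the log2 ratio of the 18 effectors was -0.51 (-0.73 to -0.30).

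Of 21 members that then reached 10 CPM, 4 were past 2-fold lower, Isg15, Ifi35, Psmb8 and Psmb9, against 7.22% of genes lower. Past 2-fold higher was 1, Rsad2, and the share of all genes higher was not computed for this setting. Isg15 was then at 158 and 39.6 CPM. Rsad2 turned from lower to higher in the induced library, at 8.24 and 60.1 CPM. Ifit3 and Ifih1 were left with 5 and 3 UMIs in each library, with intervals of the ratio that span 0. No UMI of the 16 effectors was found in 4 of 63 control and 18 of 67 induced cells. At 2000 UMIs per cell an expected 22.7% (13.0 to 35.3) of 61 control and 14.1% (6.59 to 25.3) of 62 induced cells had at least 2 effectors, with overlapping intervals, and 82.5% and 53.7% did so unthinned at the depths given above. Isg15 UMIs were found in 41 of the 63 control and 14 of the 67 induced cells at full depth.

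**Figure D4:**
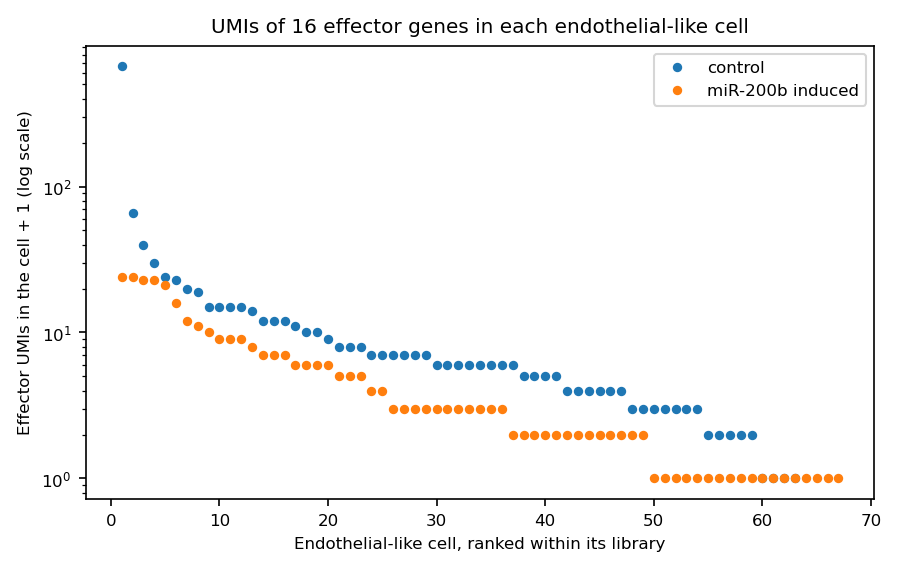
UMIs of 16 effector genes plus 1, on a log axis, in each endothelial cell ranked within its library; blue points are the 63 control cells and orange points the 67 induced cells. The top control cell, with 667 UMIs, stands apart from the next, with 65, and 4 control and 18 induced cells had none.

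The 4 transcription factors differed from each other. Irf7, which amplifies type I interferon output, was at 2.02 CPM in control and 8.08 CPM in induced epithelial cells. In the shared clusters it was at 4.24 and 4.48 CPM in the outer root sheath class (10 and 2 UMIs), 2.20 and 4.81 CPM in the upper follicle (11 and 21 UMIs) and 5.83 and 2.93 CPM in the hair matrix (9 and 3 UMIs). It was at 69.4 and 11.1 CPM in endothelial cells, or 23.8 and 10.2 CPM without the top cells. Irf9, the DNA-binding part of the complex with STAT2, was at 7.32 and 17.6 CPM in epithelial cells, and at 6.36 and 8.96 CPM (15 and 4 UMIs) in the shared outer root sheath clusters, where the whole class had 5.96 and 20.4 CPM. In endothelial cells it was at 43.9 and 27.2 CPM. Stat2, its partner, was at 6.55 and 5.77 CPM in epithelial and 32.5 and 27.2 CPM in endothelial cells. Irf1 was at 28.8 and 33.9 CPM over all epithelial cells, at 46.7 and 40.4 CPM in basal epidermis, at 31.1 and 64.7 CPM in the outer root sheath class, where the clusters shared by both libraries had 51.3 and 38.1 CPM, and, in the other direction, at 45.03 and 16.6 CPM in the unnamed epithelial clusters. In fibroblasts Irf1 was at 8.51 and 32.4 CPM, and in endothelial cells, unlike most members, it was higher in the induced library, at 97.5 and 150 CPM. Irf1 is also an early stress gene, and it led the basal cluster E20 together with Nfkbia and Atf3, with 2 control and 207 induced cells.

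The antigen processing members make and load peptides for MHC class I. B2m, the class I light chain, was at 74.1 CPM in control and 94.3 CPM in induced epithelial cells, and at 706 and 394 CPM in endothelial cells. Psmb8 and Psmb9, subunits of the immunoproteasome, were at 6.10 and 12.2 CPM and at 3.19 and 4.08 CPM in epithelial cells. In endothelial cells Psmb8 was at 196 and 54.4 CPM, and Psmb9 at 75.6 and 14.8 CPM. Tap1, which carries peptides into the endoplasmic reticulum, was at 13.1 and 12.9 CPM in epithelial cells and at 61.5 and 18.5 CPM in endothelial cells. An outer root sheath cluster, E29, with 87 control and 27 induced cells, had the most B2m of that class in both libraries, at 495 and 314 CPM, and the most Psmb8, at 89.7 and 43.4 CPM.

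Few ligand UMIs were found. Of 19 interferon genes in the matrices, Ifnb1 had 19 UMIs, all in 1 induced macrophage and dendritic cell of 14833 UMIs, which also held 83 UMIs of Isg15, 40 of the chemokine Cxcl10 and 121 of the 168 effector UMIs of its class and library. Ifnk, an interferon of keratinocytes, had 8 UMIs in 4 control cells and 29 UMIs in 29 induced cells. The receptor chains Ifnar1 and Ifnar2 were at 15.1 and 14.7 CPM and at 24.5 and 34.0 CPM in epithelial cells, and the kinase Jak1 at 92.7 and 107.6 CPM.

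Of 94 further genes of the pathway, 90 were measured. In epithelial cells 26 of them reached 10 CPM, and 1, Ly6e, a membrane protein that restricts coronaviruses, was past 2-fold higher in the induced library, at 22.2 and 93.3 CPM, where 2.22% of all genes were. Of the 26, 0 were past 2-fold lower, and the median log2 difference was 0.08. In basal epidermis Tmem173, which encodes the DNA-sensing adaptor STING, was at 7.18 and 27.6 CPM, and Socs3, a feedback inhibitor of JAK signalling, at 600.4 and 248.6 CPM. In fibroblasts Socs3 was at 42.4 and 229.96 CPM. In endothelial cells 49 reached 10 CPM, 16 of them past 2-fold lower, against 7.79% of all genes, and 1, Slfn5, higher, against 4.83%. Of the 16, 6 (Cgas, Socs1, Isg20, Igtp, Ifi204 and Cxcl10) reached the minimum through the control alone. Without the top cells 2 of 44 were past 2-fold lower, 4.55%, a share below the 7.22% of all genes. Cxcl10 was at 293 and 7.42 CPM over all endothelial cells and at 9.16 and 7.67 CPM without the top cells.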

How the data were processed

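The deposited values were raw UMI counts per gene and barcode of 1 control and 1 induced library, made with Cell Ranger 6.0.0 on mm10, per the submitters' processing notes. Barcodes with at least 1000 UMIs, 500 genes and under 15% mitochondrial UMIs were kept. The 7% with the highest Scrublet scores per library were removed as doublets, because the automatic threshold marked 3 and 1. Of the deposited barcodes, 74 occurred in both libraries. Cells were clustered together without integration (scanpy 1.11.5, leidenalg 0.10.2), leaving out the members and pathway genes, and named from marker lists, using thresholds chosen once the values were known.

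For each class and library, UMIs were summed and scaled to CPM, and exact Poisson intervals were added. Ratios have exact conditional binomial intervals and shares Clopper-Pearson intervals, at 95% and for counting error only. A level of 0 allows 3 counts. With 1 library per group no test was made, and a gene was counted when past 2-fold on log2(CPM + 5) at a mean of at least 10 CPM. Shares at 2000 UMIs per cell are expectations over all possible thinnings, computed exactly. This replaced single random thinnings after repeated draws had been seen to differ. The interval steps and the thinning were tested on simulated data. Members with at least 20 CPM in a class of 50 or more cells are given by class, the others by range and counts. Members and lists were chosen with earlier results of these data known. One gene of the pathway lists is not reported here.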

Additional observations from a re-analysis of the deposited data

Results flagged for a closer look

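For 13 members the log2 ratio of induced over control was above 0 in epithelial cells and below 0 in endothelial cells, with counting intervals that leave out 0 in both. Each side compares 1 library with 1, and whether the sides differ was not tested. The share of all genes that meet the same rule was not computed, so the count is a description. The epithelial and endothelial values were 1.96 and -2.65 for Isg15, 5.25 and -2.34 for Ifit1, 2.27 and -0.374 for Ifitm3, and 0.123 and -1.46 for Ifi35. They were 1.63 and -2.68 for Ifih1, 2 and -2.64 for Irf7, 3.03 and -2.26 for Oasl2, and 1.59 and -1.12 for Rsad2. They were 5.10 and -0.912 for Rtp4, 1.32 and -1.21 for Bst2, 1.00 and -1.85 for Psmb8, 0.357 and -2.35 for Psmb9, and 0.347 and -0.841 for B2m. Without the endothelial cell with the most effector UMIs in each library, Rsad2 was above 0 in endothelial cells too, at 2.87, Ifih1 rested on 3 UMIs per library, and the endothelial intervals of Ifit1, Oasl2 and Rtp4 reached across 0. The epithelial side is pooled over clusters that mostly come from 1 library. In the clusters shared by both libraries, 5 of the 13 had a lower CPM in the induced library in the outer root sheath class (Isg15, Rsad2, Bst2, Psmb8 and Psmb9). In the upper follicle 5 did (Isg15, Ifi35, Bst2, Psmb9 and B2m), and in the hair matrix 4 did (Irf7, Rsad2, Psmb9 and B2m). Rsad2 had 1 control and 0 induced UMIs in the outer root sheath class and again in the hair matrix, too few to call it lower. The share of all genes with a lower CPM by any amount was not computed.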

How the results depend on the processing

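No paired analysis was possible because each group had 1 library. None of the 5 summary results below reversed under the alternatives run for them, although single genes such as Rsad2 in endothelial cells did. The 5 results were not recomputed within the clusters shared by both libraries, so whether they hold there was not tested. Some alternatives were chosen after seeing the data. These left out single cells, a cluster or Ifi27 and Oas1f. For results outside the 5, they added the macrophage and dendritic class to the order of classes or kept only clusters shared by both libraries. The epithelial log2 ratio of summed effectors was 1.07 with doublets kept, 1.13 relative to the median gene and 0.88 with each cell weighted equally, and stayed within its counting interval under the other 7 settings. The fibroblast ratio was -0.13 without Ifi27 and Oas1f and stayed within its interval under the other 9. The endothelial ratio was -1.33 with doublets kept, -1.11 with each cell weighted equally and -0.51 without the cell with the most effector UMIs in each library. With no minimum level, 4 members of 30 were past 2-fold in epithelial cells, instead of 2 of the 9 that reached the minimum. The share of all genes past 2-fold was not computed for that setting, so the larger count is a description. The log2 ratio of the epithelial share of cells with at least 2 effectors, 1.67, was 2.96 for at least 3 effectors and 2.39 without Ifi27 and Oas1f. Depth limits the members under about 1 CPM in the epithelium and low single genes in classes of under 100 cells, and 1 library per group leaves the difference between animals or preparations unmeasured.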
